A study of Mus musculus with 2 samples.

Results

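The mouse major histocompatibility complex (MHC) and its flanks on chromosome 17 were examined for allele-resolved open chromatin. The span was every 50 kb window of the table that starts at or after 30 Mb and ends by 42.5 Mb of the mm10 genome, a rule on position. It holds 138 of the 43941 windows in the table. ATAC-seq, which marks accessible DNA by the insertions of a transposase, was run on 2 replicates of F121-6, a female hybrid embryonic stem cell line. One chromosome set of the line is from 129 mice and the other from castaneus (CAS) mice, and the cells were grown with serum and LIF on fibroblast feeders stopped with mitomycin C. All samples belong to this 1 group, so the comparison is between the alleles of a library. Whether each replicate had a culture of its own is not stated, so p-values measure only the spread between these samples, which may be technical.

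The MHC encodes the proteins that show peptides to T cells. Class I molecules sit on most cell types and take peptides that the immunoproteasome cuts and the TAP transporter carries, while class II molecules are made mainly by antigen-presenting cells. The class I genes of the mouse are split between a K end, next to class II, and a D, Q, T and M end, with the class III genes for complement, tumour necrosis factor and heat shock proteins in between. Embryonic stem cells are known for low surface class I. The region is also one of the most polymorphic of the genome, and it holds Pou5f1, the gene of the pluripotency factor OCT4, among the class I genes.

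Promoter sequences are shown for 4 genes on which the results below turn. Pou5f1 lies in the window with the second-largest count of the span, H2-D1 in the window with the largest excess of 129, H2-K1 is its class I counterpart at the K end, and Tap1 starts where counts were seen in replicate 1 alone. Each line gives the 250 bases before a RefSeq start on GRCm38.p6 (mm10 coordinates), 5′ to 3′ on the strand of the gene. Pou5f1 and H2-K1 have 2 such starts each, of which 1 is shown. The H2-K1 stretch lies inside the annotated gene, which extends to 34000619. Capitals mark the CCAAT box, the GC box (GGGCGG) and the TATA box (TATAAA), each on either strand.
Pou5f1, chr17:35505782-35506031, plus strand: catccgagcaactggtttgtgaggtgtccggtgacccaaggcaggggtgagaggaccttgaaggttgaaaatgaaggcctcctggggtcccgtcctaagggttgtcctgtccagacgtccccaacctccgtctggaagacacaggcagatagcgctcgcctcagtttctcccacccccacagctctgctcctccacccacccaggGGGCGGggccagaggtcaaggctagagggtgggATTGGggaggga
H2-D1, chr17:35262844-35263093, plus strand: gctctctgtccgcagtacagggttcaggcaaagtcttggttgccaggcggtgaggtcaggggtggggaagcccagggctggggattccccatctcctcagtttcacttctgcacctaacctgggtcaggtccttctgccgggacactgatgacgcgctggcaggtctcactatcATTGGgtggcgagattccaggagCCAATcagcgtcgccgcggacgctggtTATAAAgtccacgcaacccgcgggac
H2-K1, chr17:34000348-34000597, minus strand: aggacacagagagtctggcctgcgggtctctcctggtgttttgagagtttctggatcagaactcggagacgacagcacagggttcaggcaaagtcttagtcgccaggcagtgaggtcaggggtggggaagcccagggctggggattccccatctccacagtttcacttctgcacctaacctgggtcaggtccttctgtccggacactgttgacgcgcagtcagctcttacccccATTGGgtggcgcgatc
Tap1, chr17:34187306-34187555, plus strand: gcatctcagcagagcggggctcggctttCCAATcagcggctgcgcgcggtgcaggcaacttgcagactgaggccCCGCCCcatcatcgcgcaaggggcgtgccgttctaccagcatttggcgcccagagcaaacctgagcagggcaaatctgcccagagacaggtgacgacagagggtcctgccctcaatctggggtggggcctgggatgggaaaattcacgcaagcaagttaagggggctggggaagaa

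The stretches were searched on both strands for the CCAAT, GC and TATA boxes, the E-box (CACGTG), the interferon-stimulated element and a pair of cyclic AMP response elements (TGACGTCA and its variant ending in TAA). CCAAT was found in all 4 sequences. It is held by 33.8% of the 32851 promoter sequences of this length and by 43.2% of the 370 in the span. Among stretches searched but not shown, that of Psmb9 holds it and that of Brd2 does not. H2-D1 also holds the TATA box (12.4% of all sequences), and Pou5f1 and Tap1 hold the GC box (32.7%). Counted from the start, the ATTGG that H2-D1 and H2-K1 share begins at -76 in H2-D1 and at -16 in H2-K1. The H2-K1 stretch thus ends before the bases that line up with the H2-D1 TATA box. No difference between these genes in that box is shown. The exact letters of the other motifs were not in these stretches. Other forms of these elements were not searched for and may be present. Of all sequences, 6.02% hold the E-box, 2.98% the interferon-stimulated element, and 1.55% and 0.447% the cyclic AMP elements. The Tap1 stretch overlaps the promoter of Psmb9, an immunoproteasome subunit gene that starts in the opposite direction. The counts below refer to 50 kb and do not place a site within these sequences.

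Much of the span had no row, above all its distal part. Of 250 grid windows, 112 (44.8%) were not in the table, against 128 of 1588 (8.06%) in the rest of chromosome 17 and 3978 of 47919 (8.30%) overall. Of 196 blocks of 12.5 Mb tiled over the rest of the genome, a comparison added after the data were seen, 1 had as large a share of missing rows, at 45.2%, and the median block had 4.80%. What decides whether a window has a row was not tested. From 37.7 Mb on, a point chosen after the gaps were seen, 84 of 96 grid windows were missing, and before that point 28 of 154.

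The longest gap ran from 38000001 to 39900000, 38 windows in a row, the fifth longest of 1207 gaps in the table. It covers 10 olfactory receptor genes, among them Olfr129 and Olfr136, and the genes Esp15, Esp16, Esp18, Esp23, Esp24, Esp31, Esp34 and Esp36, which encode secreted peptides of exocrine glands, some of them pheromones. After 1 window at 0 in all columns, the next gap ran from 39950001 to 40800000. It holds the other Esp genes, the sperm glycolysis gene Pgk2 and Crisp1, Crisp2 and Crisp3, cysteine-rich secretory proteins of the male reproductive tract. The third long gap, from 41300001 to 42200000, has no coding gene. A further gap from 37700001 to 37950000 took the receptor genes Olfr120 to Olfr128 and part of Olfr119.

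Gaps on the MHC proper were shorter. The gap from 34950001 to 35050000 removed the heat shock genes Hspa1a, Hspa1b and Hspa1l and the mismatch repair homologue Msh5. Those from 35650001 to 35700000 and from 35750001 to 35950000 removed the collagen receptor gene Ddr1 in part, the tubulin gene Tubb5, the DNA damage mediator Mdc1, Flot1 and Ppp1r10. From 36250001 to 36350000 the gap took Rpp21, a ribonuclease P subunit, Trim39, H2-M10.1 and H2-M10.2, and from 36400001 to 36500000 it took H2-M10.4. The gap from 37000001 to 37050000 holds Zfp57, a zinc finger protein that protects imprinted methylation, and the myelin gene Mog. The one from 37200001 to 37300000 holds H2-M3, a class I molecule that presents bacterial peptides, with receptor genes Olfr95 to Olfr99 and part of Olfr101.

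In the flanks, the gap from 30500001 to 30750000 held parts of Btbd9 and Dnah8 and all of Glo1, the glyoxalase gene. That from 32200001 to 32450000 held Akap8 and Akap8l, which encode A-kinase anchoring proteins, and Wiz. The remaining gaps were 33250001 to 33300000 (Olfr63 and parts of Zfp955a and Zfp955b), 36700001 to 36750000 (no coding gene) and 36900001 to 36950000 (Rnf39 and parts of Trim31 and Ppp1r11). They also included 37500001 to 37550000 (Olfr111), 40850001 to 40950000 (Glyatl3, Cenpq and part of Mmut), 41000001 to 41100000, 42250001 to 42300000 and 42350001 to 42400000 (part of Ptchd4).

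Absence differed by gene group, but neighbouring genes share windows and gaps, so genes are not independent cases. All 15 Esp genes (13 grid windows), all 3 Crisp genes (4 windows) and all 3 heat shock genes (1 window) had no row at all. The same held for 30 of 62 olfactory receptor genes and pseudogenes. In contrast, every window was present for the 2 class Ia genes (3 windows), the 8 Q genes (4) and the 7 T genes (4). So were those of the 11 class II genes (6) and the 5 antigen processing genes (3). Of the 15 M genes 4 had no row and 1 had a row for part of its length. Over all coding genes, 86 of 306 in the span had no row (28.1%), against 74 of 741 (9.99%) on the rest of chromosome 17. In the whole table, grid windows over coding olfactory receptor genes were missing in 136 of 575 cases (23.7%). These include 15 of 27 in the span. Windows of the span without a coding gene were missing in 56 of 68 cases (82.4%; whole table, 7.54%). Those over any coding gene were missing in 56 of 182 (30.8%; whole table, 8.85%).

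**Figure D1:**
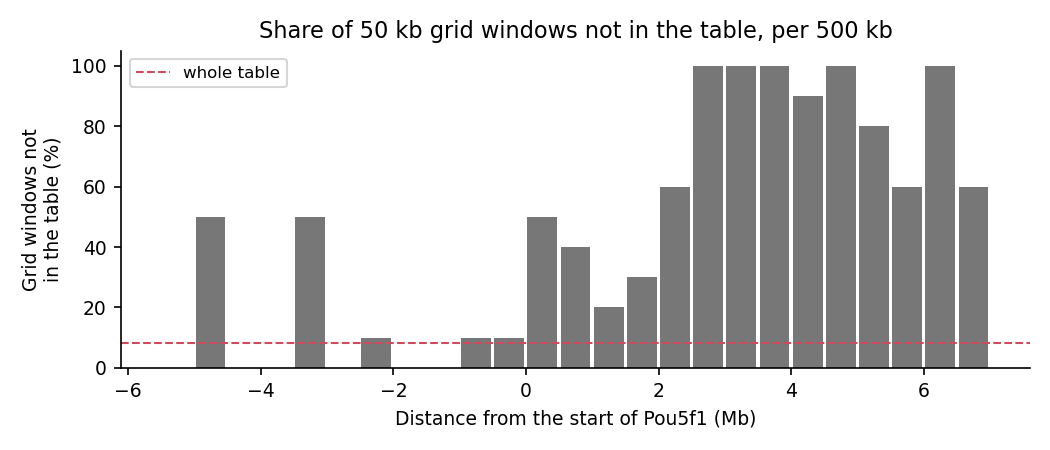
Share of the 50 kb grid windows that are not in the table, in bins of 500 kb along the span. The x axis is the distance from the start of Pou5f1 in Mb, and the dashed line is the share over the whole table (8.30%). The bars are highest on the far side of Pou5f1, beyond the class I T and M genes.

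The windows that were present carried few counts. The span held 258 counts in replicate 1 (139 on 129 and 119 on CAS) and 237 in replicate 2 (128 and 109). Over both alleles this is a mean of 1.87 and 1.72 counts per window, against 2.26 and 2.89 on the rest of chromosome 17. The span was lower in both replicates, by a mean of -0.783 ± 0.555 (SD, n = 2). With 2 libraries an exact sign-flip permutation test, two-sided, gives p = 0.5, the smallest it can give. At 0 in all 4 columns were 44 of 138 windows (31.9%), against 21.7% of the whole table and 19.9% of the rest of the chromosome. The MHC proper was nearer to these values than the flank before it. From Daxx to the last H2-M gene, 56 windows had means of 2.23 and 2.14 counts, and 21.4% were at 0. In the proximal flank 41.8% were at 0. The 138 windows held more genes, a mean of 2.07 coding genes each, against 0.867 on the rest of chromosome 17. The values are small whole numbers, so a difference of 1 or 2 counts in a window carries little information.

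**Figure D2:**
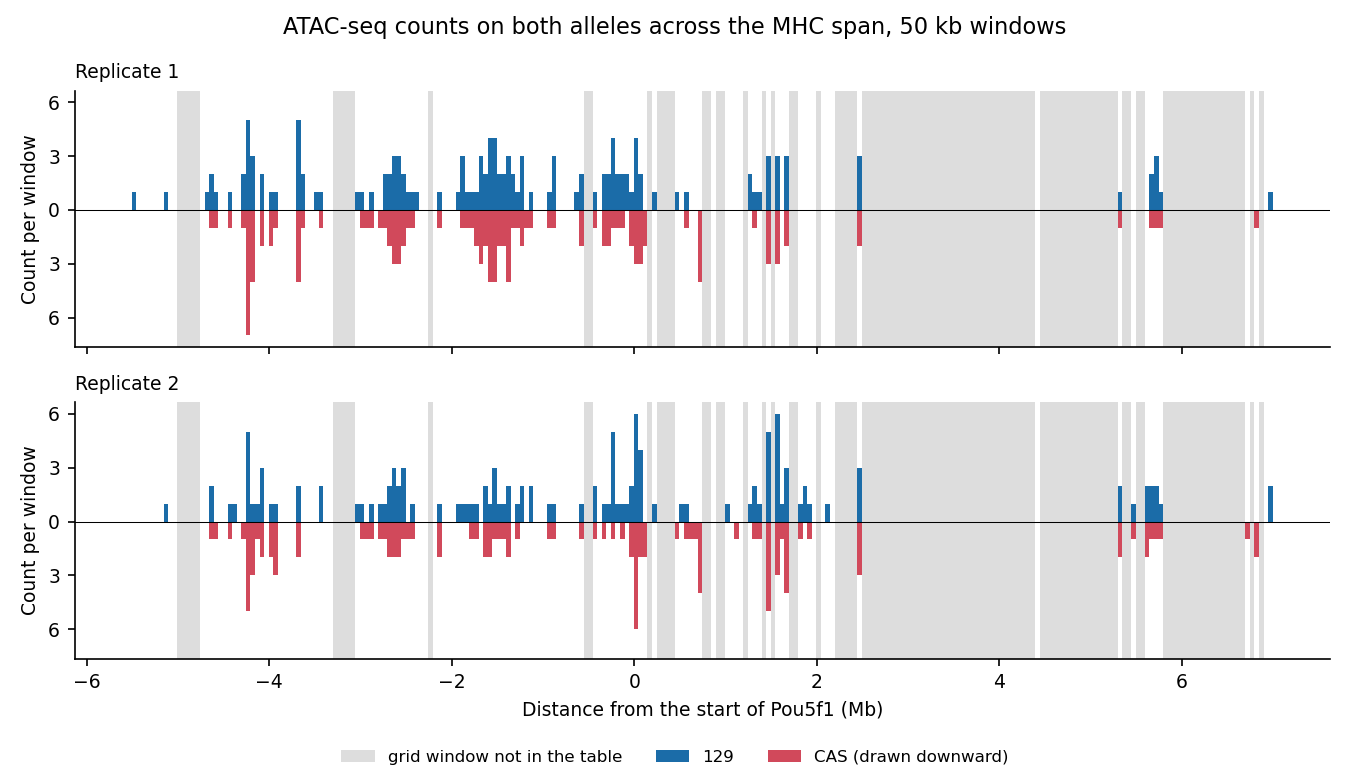
Count per 50 kb window along the span in each replicate, with 129 drawn upward and CAS downward, against the distance from the start of Pou5f1 in Mb. Grey bands are grid windows that are not in the table. Counts gather in clusters of neighbouring windows, and the highest window reaches 7 counts on CAS in replicate 1.

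The window with most counts lay in the proximal flank, at 31250001 to 31300000, over Ubash3a, a regulator of T cell receptor signalling, Rsph1 and Slc37a1, a sugar-phosphate transporter gene. It had 5 and 5 counts on 129 against 7 and 5 on CAS in replicates 1 and 2. Both alleles were high there in each replicate. The Pou5f1 window, at 35500001 to 35550000, came next. It had 4 and 6 on 129 against 3 and 6 on CAS, and it also holds Tcf19, Cchcr1, Psors1c2 and Cdsn, so the counts cannot be given to 1 gene. The alleles differed there by 1 count in replicate 1 and not at all in replicate 2.

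Next were 2 windows at the M end. The window at 36950001 to 37000000, with Znrd1, a subunit gene of RNA polymerase I, Ppp1r11 and H2-M5, had 3 and 5 on each allele. The window over Gabbr1, the GABA-B receptor gene, at 37050001 to 37100000, had 3 and 6 on 129 against 3 and 3 on CAS. The Sik1 window, a salt-inducible kinase gene at 31800001 to 31850000, had 5 and 2 on 129 against 4 and 2 on CAS. These windows were alike on both alleles in replicate 1, to within 1 count, apart from the Ubash3a window.

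At the K end the class I and class II genes were covered without a gap. The longest run of windows with counts in all 4 columns, 6 windows from 33850001 to 34150000, lies there. It held 17 and 10 counts on 129 against 18 and 9 on CAS. It spans Kifc1, Daxx, a histone chaperone for H3.3, the peptide-loading factor gene Tapbp, Rps18, H2-K1, the Polycomb gene Ring1, the retinoid receptor gene Rxrb and Brd2, a reader of acetylated histones. The Daxx and Tapbp window had 4 and 1 counts on 129 against 4 and 2 on CAS. The 2 windows of H2-K1 summed to 6 and 4 on 129 against 6 and 2 on CAS. The Brd2 window had 3 and 2 on 129 against 4 and 2 on CAS. All of these were lower in replicate 2 than in replicate 1.

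The window that holds the starts of Tap1 and Psmb9, with Psmb8 and H2-DMb1, at 34150001 to 34200000, had 2 counts on 129 and 1 on CAS in replicate 1 and 0 in replicate 2. Tap2 and H2-Ob, in the next window, had 1 count in every column. H2-Ab1 and H2-Aa, the chains of the I-A class II molecule, share a window that had 3 and 2 on 129 against 2 and 0 on CAS, so 129 was higher in both replicates. The H2-Eb1 and H2-Eb2 window had a single count, on CAS in replicate 1. Over the 6 windows of the 11 class II genes, 129 had 11 and 6 counts and CAS 11 and 4.

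Class III was sparse for a stretch of many genes. Its 12 windows held 12 and 7 counts on 129 against 9 and 5 on CAS. Of them 5 were at 0 (41.7%), near the 41.8% of the proximal flank and above the 21.7% of the whole table. The 4 windows from 34650001 to 34850000, over Tnxb, C4b, the steroid 21-hydroxylase gene Cyp21a1, Stk19 and Dxo, were at 0 in every column. The 3 windows of the complement genes C2, Cfb, C4a and C4b held 1 count in all, on 129 in replicate 1. That count lies in the window with the start of Ehmt2, the gene of the H3K9 methyltransferase G9a, and the next window, with the rest of Ehmt2, Slc44a4 and Neu1, had 2 and 1 on each allele. Over their 3 windows the 8 genes around Tnf had 8 and 7 counts on 129 against 5 and 2 on CAS, of which the window that Ddx39b shares with H2-D1 gave 4 and 5 and 1 and 1. The window with the start of Tnf itself had 2 and 1 on 129 against 2 and 0 on CAS.

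**Figure D3:**
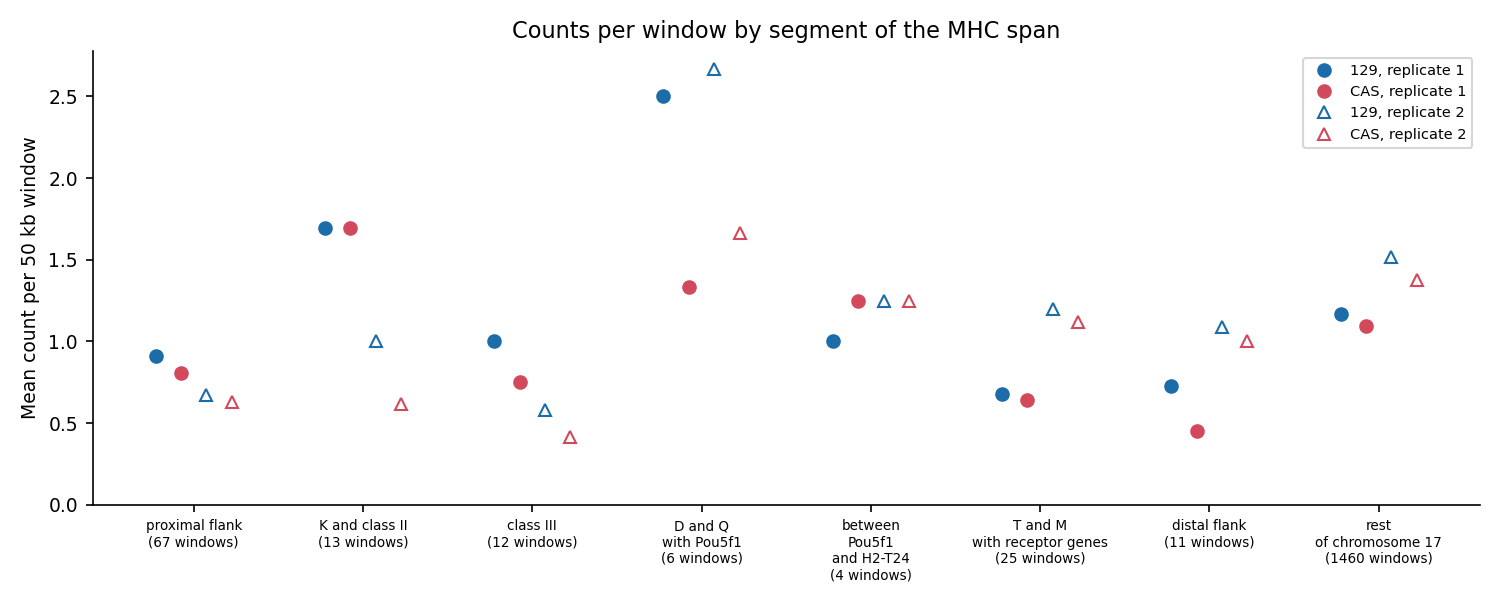
Mean count per 50 kb window on each allele (colour) and in each replicate (filled circles, replicate 1, and open triangles, replicate 2) for the 7 segments of the span and the rest of chromosome 17. Points are single values with no error bar. On 129 the segment with H2-D1, the Q genes and Pou5f1 is highest (2.5 and 2.67), and CAS lies below it in both replicates (1.33 and 1.67).

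The D and Q segment, from H2-D1 to Pou5f1, had more counts on 129 in both replicates. Its 6 windows held 15 and 16 counts on 129 against 8 and 10 on CAS. That is a 129 share of 65.2% in replicate 1 (95% Clopper-Pearson interval 42.7 to 83.6%) and 61.5% in replicate 2 (40.6 to 79.8%), and both intervals include 50%. The window of H2-D1, a classical class I gene, at 35250001 to 35300000 with the RNA helicase gene Ddx39b, had 4 and 5 on 129 against 1 and 1 on CAS. The window of H2-Q1 and H2-Q2 had 2 and 1 on 129 against 1 and 0 on CAS. H2-Q4 had 2 and 1 against 1 and 1, and H2-Q6 and H2-Q7, which encode the Qa-2 antigen, had 2 and 1 against 0 and 0. H2-Q10, whose product is secreted, went the other way in replicate 1, with 1 and 2 on 129 against 2 and 2 on CAS. The 8 Q genes and pseudogenes summed to 7 and 5 on 129 against 4 and 3 on CAS over 4 windows. Together, H2-D1 and H2-K1 had 10 and 9 against 7 and 3. In the run of 5 windows from 35200001 to 35450000, Tnf to H2-Q7, 129 was never lower in either replicate. That run summed to 12 and 9 on 129 against 5 and 2 on CAS. It was picked after its values were seen. Class I genes are near copies of each other and differ between strains, and how reads were given to a gene copy or an allele is not given in the sources used here, so these values are uncertain.

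The T genes held few counts, and the M genes most of theirs in the window of H2-M5. The 7 T genes lie in 4 windows that held 1 and 2 counts on 129 against 1 and 3 on CAS. H2-T23, which encodes Qa-1, a ligand of natural killer cell receptors, shares a window with H2-T24 and H2-T22 that had 1 count in all, on 129 in replicate 2. The 9 windows present for the 15 M genes held 6 and 9 on 129 against 4 and 7 on CAS. Without the window of H2-M5 that leaves 3 and 4 on 129 against 1 and 2 on CAS, in 8 windows. H2-M10.5, of a family expressed with vomeronasal receptors, had 2 and 1 on 129 against 0 on CAS. H2-M1, H2-M2 and H2-M10.3 were at 0 in every column. The 13 windows present for olfactory receptor genes and pseudogenes held 9 and 18 on 129 against 7 and 13 on CAS, and 5 of them were at 0.

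Between the T and the M genes 1 window was on CAS alone. The window at 36200001 to 36250000 carried 4 and 4 counts on CAS, with 0 on 129 in both replicates. It overlaps no coding gene: H2-T3, the gene of the thymus leukaemia antigen, ends 9850 bp before it and Rpp21 lies 5673 bp after it, in a gap of the table. The annotation places Gm5682, Gm10074, Gm18604 and Gm4252 in it, none of them coding. With 0 of 8 counts on 129, a share of up to about 37.5% is allowed by counting error alone. This rough limit is 3 counts of 8 and not a Clopper-Pearson interval. A window at 35600001 to 35650000, with the mucin-like gene Mucl3 and Sfta2, had 2 and 2 on CAS and 0 on 129. These were the 2 windows of the span with 4 or more counts on 1 allele and 0 on the other. None had 129 alone. Among all windows, 0.551% of windows met this rule on CAS and 0.414% on 129.

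The proximal flank held the largest part of the counts and the distal flank few rows. The 67 proximal windows held 61 and 45 counts on 129 against 54 and 42 on CAS, a 129 share of 53.0% and 51.7%. The 15 zinc finger genes, which include Zfp811, Zfp870 and Zfp952, summed to 16 and 12 for 129 and 12 and 10 for CAS, in 11 windows. The Zfp870 window had 3 and 3 against 3 and 2. Parts of Zfand3 and Btbd9 fell in the longest run at 0, 6 windows from 30050001 to 30350000. The 11 distal windows held 8 and 12 on 129 against 5 and 11 on CAS. Of these, 2 adjacent windows with no annotated gene, from 41150001 to 41250000, had 5 and 4 on 129 against 2 and 2 on CAS. At the edges of the span, the last row before 30 Mb had 1 and 1 on 129 against 0 and 2 on CAS and the first row inside 1 and 0 against 0 and 0. The last row inside 42.5 Mb, in Ptchd4, had 1 and 2 on 129 against 0 and 0, and the next had 0 and 1 on each allele.

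The remaining lists were small. The 6 butyrophilin-like genes had 1 and 2 counts on 129 against 1 and 0 on CAS in 3 windows. Of 6 TRIM genes, Trim39 had no row, and Trim26, an E3 ubiquitin ligase gene, had 2 and 3 on 129 against 1 and 2 on CAS. Housekeeping genes had 9 and 4 against 8 and 4 in 3 windows, and chromatin and transcription genes 18 and 13 against 17 and 16 in 11. The other class III genes had 10 and 6 against 7 and 5 in 10 windows, and antigen processing genes 7 and 2 against 6 and 3 in 3. No vomeronasal receptor or Adgrf gene of the fixed lists lies in the span.

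Over the whole span 129 gave slightly more counts than CAS. The 129 share was 53.9% in replicate 1 (47.6 to 60.1%) and 54.0% in replicate 2 (47.4 to 60.5%), a mean of 53.9% ± 0.0937 (SD, n = 2). The intervals cover counting error only and include 50%. The rest of chromosome 17 was also on the side of 129, at 51.6% and 52.5%, while the whole table stood at 48.8% and 49.9%. The span exceeded the rest of its chromosome by 1.87 ± 0.524 percentage points (SD, n = 2), higher in 2 of 2 replicates (exact sign-flip permutation test, two-sided, p = 0.5, the smallest 2 libraries can give). No difference from the rest of the chromosome is shown. Among the 196 blocks of 12.5 Mb elsewhere, 9 had a 129 share at or above that of the span in both replicates.

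Window by window, 14 of 138 were higher on 129 in both replicates (10.1%; whole table, 8.96%) and 6 were higher on CAS in both (4.35%; whole table, 9.87%). With columns scaled to 1 total, 50 were higher on 129 and 6 on CAS, since equal counts then favour the smaller 129 columns. The replicates pointed opposite ways in 4 windows (2.90%; whole table, 7.59%). Equal counts on the alleles, in both replicates and with a count, were found in 25 windows (18.1%; whole table, 13.1%). The share on 129 is near that of the whole table. On the rest of chromosome 17, 11.8% of windows were higher on 129 in both replicates and 6.78% on CAS. The 14 windows lie over Btbd9, Dnah8, Cyp4f39, Adamts10, Zfp414, H2-Aa, H2-D1, H2-Q1, H2-Q6, Ddr1, H2-M10.5 and Ptchd4 and the 2 distal windows without a gene. The 6 on CAS lie over Slc37a1, Wdr4, Cyp4f16, Mucl3 and Ptchd4 and beside Rpp21. Ptchd4, a patched-domain gene at the distal edge, thus has 1 window on each side.

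An excess of at least 3 counts, held in both replicates, was met once on each side: the H2-D1 window on 129 (0.725% of windows; whole table, 0.234%) and the window beside Rpp21 on CAS (0.725%; whole table, 0.271%). Single windows give no rate to compare. Across the 94 windows with a count, the log2 ratio of the alleles (pseudocount 0.5) correlated between the replicates at r = 0.471, against 0.267 over the whole table. These points share 2 libraries and rest on few counts each.

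**Figure D4:**
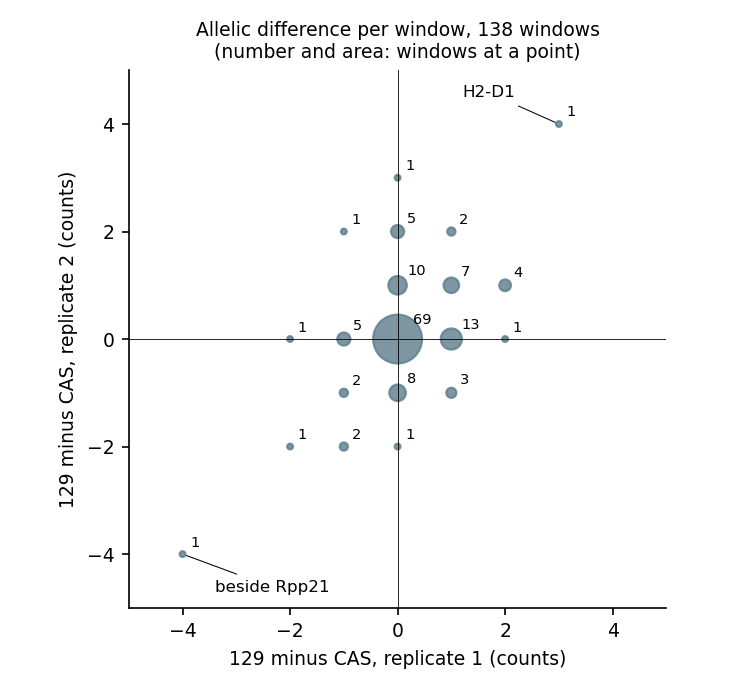
Count on 129 minus count on CAS in replicate 1 (x axis) and replicate 2 (y axis) for the 138 windows. The number and area of a point give how many windows share it. Most windows lie at or next to 0, and the windows of H2-D1 and beside Rpp21 are the farthest out in opposite corners.

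No window or 1 Mb bin of the span passed the edgeR test. With TMM scaling, the quasi-likelihood test of edgeR on the 34417 windows that held a count made 0 calls on either side (0%), and so 0 among the 94 of the span. At an unadjusted p under 0.05 there were 7 windows in the span and 910 of all windows (2.64%). With the replicate as a block, these numbers were 1 and 65 (0.189%). The window beside Rpp21 had the smallest p of the span without the block (edgeR, adjusted p = 0.999), and the H2-D1 window with it (edgeR, adjusted p = 1). Without the block, the H2-D1 window had a log2 difference of 2.04 (edgeR, unadjusted p = 0.0279, adjusted p = 0.999). No SE is given for it, since an SE derived from the F statistic falls below the counting error of so few counts. The DESeq2 Wald test also called 0 windows, with 0 of the span and 11 of all windows (0.032%) at an unadjusted p under 0.05. Limma on centred square roots called the window beside Rpp21 (adjusted p = 0.00301), the 1 call it made in the span, where it called 0.131% of all windows on CAS and 0.0959% on 129. Limma with the replicate as a block called 0 of all 34417 windows, with a lowest adjusted p of 0.280 in the span. Its 0 there does not set the span apart.

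Summed to 1 Mb, none of the 10 bins of the span that held a count passed edgeR (0% of 2384 bins), and 0 had an unadjusted p under 0.05 (2.94% of all bins). With the replicate as a block edgeR called 0.252% of bins on 129 and 0.0419% on CAS, and again none in the span. The bin from 35 to 36 Mb, with H2-D1, the Q genes and Pou5f1, had the lowest p. It held 24 and 25 counts on 129 against 18 and 17 on CAS. Without the block this was a log2 difference of 0.53 (SE 0.31, derived from the F statistic; edgeR, adjusted p = 0.998). With the replicate as a block it was also 0.53 (edgeR, adjusted p = 0.797). The bin from 36 to 37 Mb, with the T and M genes, had 8 and 12 on 129 against 9 and 15 on CAS (without the block, log2 difference -0.22, SE 0.34, edgeR, adjusted p = 0.998). An SE derived in this way can fall below the counting error. No window held more than 12 counts over both alleles in a replicate, which limits the differences that could be detected at this depth.

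The span gave a smaller part of replicate 2 than of replicate 1. Replicate 2 held 1.33 times the counts of replicate 1 over the whole table and 1.28 times on the rest of chromosome 17, but 0.919 times in the span. As a share of its library, the span fell from 0.286% (95% Clopper-Pearson interval 0.252 to 0.323%) in replicate 1 to 0.198% (0.173 to 0.225%) in replicate 2. The rest of the chromosome gave 3.66% (3.54 to 3.79%) and 3.53% (3.42 to 3.63%). Of the 196 blocks of 12.5 Mb elsewhere, 15 had as low a ratio, and the median was 1.32. The 2 libraries are single values, so this difference has no test over samples.

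Segments of the span lay on both sides of the 1.33 of the whole table. The ratio of replicate 2 to replicate 1 was 0.477 in the K and class II segment (44 and 21 counts), 0.571 in class III (21 and 12) and 0.757 in the proximal flank (115 and 87). It was 1.13 from H2-D1 to Pou5f1 (23 and 26) and 1.11 from there to H2-T24 (9 and 10), also below the whole table. Above it were 1.76 over the T, M and receptor genes (33 and 58) and 1.77 in the distal flank (13 and 23). Over the whole table, windows with more genes had lower ratios, a split made after the data were seen. Windows with 4 or more coding genes gave 0.875 over the table and 0.719 in the span, and windows with none 1.76 and 1.46. In each class of gene number the span lay below the whole table. The part of gene density in the ratio of the span was not tested.

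**Figure D5:**
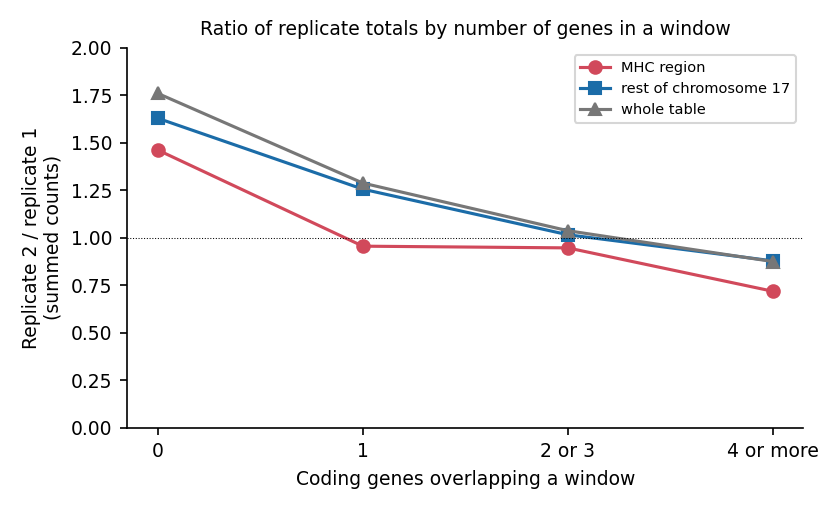
Summed counts of replicate 2 divided by those of replicate 1 for windows grouped by the number of coding genes they overlap, in the span, the rest of chromosome 17 and the whole table. The ratio falls from 1.76 to 0.875 over the whole table and from 1.46 to 0.719 in the span.

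The label of the cells was checked against marker windows. Of 12 stem cell markers, 10 had rows and all 10 had counts (median 27 over the 4 columns, 7 to 89), with Nanog at 9 and 11 on 129 against 7 and 8 on CAS. Klf2 and Fgf4 had no row. Of 11 fibroblast markers, which the feeders express, 10 had counts (median 7, 0 to 49) and Postn was at 0. All 7 markers of lymphoid and myeloid cells had counts (median 10, 3 to 32), although the culture is not labelled as holding such cells. These sums run over 1 to 4 windows per gene, and 78.3% of all windows in the table held a count, so having a count marks no cell type. The contribution of feeder cells to the span was not tested. In bulk libraries, fewer cells with an open site and a less open site in each cell cannot be told apart.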

How the data were processed

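ATAC-seq was measured in 2 replicates of F121-6. The authors deposited 1 table of counts, whole numbers from 0 to 18 in 50 kb windows. It has 4 count columns, 1 for each allele in each replicate, and 0 other columns of per-sample values. Per the submitters' processing notes, Bowtie2, MACS2, SAMtools and bedtools were used, without versions or roles, on mm10. The counted feature, the assignment of alleles and the choice of windows: not given in the sources used here. Library totals were 90154 and 119807 counts.

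Windows were annotated with RefSeq genes of GRCm38.p6 by any shared base, with 1-based coordinates. The span was divided at Daxx, Notch4, H2-D1, Pou5f1, H2-T24 and its last olfactory receptor gene. Members, lists and rules were chosen with earlier results of these data known. Named windows were the 10 with most counts, those with a difference of 3 or more counts in both replicates, those with 4 or more counts on 1 allele alone, those with the start of 20 chosen genes, the longest runs and gaps, and those of listed genes. Of those 20 genes, 17 had a RefSeq promoter entry.

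edgeR 4.0.16 (quasi-likelihood, TMM, every row with a count, Benjamini-Hochberg, threshold 0.05) was fitted to the whole table, with DESeq2 1.42.0 and limma 3.58.1 (square root of the count plus 0.375, columns centred) as alternatives, in R 4.3.3. The replicate number pairs the alleles, since 1 library holds both (deviations correlated at r = 0.334 over 34417 windows). Other values were computed with Python 3.11.15 and SciPy 1.17.1.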

Additional observations from a re-analysis of the deposited data

How the results depend on the processing

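In the span, edgeR called 0 windows and 0 bins of 1 Mb with the replicate block, DESeq2 size factors, 1 library size per replicate or an adjusted p threshold of 0.1, as did the DESeq2 Wald test. At 50 kb these settings called 0 windows of the whole table, apart from 1 with 1 library size per replicate. Among the 2384 bins of 1 Mb only the replicate block made calls, 6 on 129 and 1 on CAS. The 0 in the span therefore does not set it apart. Pairs of windows and bins of 500 kb and 2.5 Mb, without the block, also gave 0 in the span and in the whole table. Limma on centred square roots called 1 window of the span, and 0 of the whole table with the replicate block. At an unadjusted p under 0.05, edgeR had 7 of the 94 tested windows of the span (whole table, 2.64% of windows). It had 1 of 94 with the replicate block (whole table, 0.189%) and 3 of 94 with DESeq2 size factors (whole table, 0.822%). The filter of a minimum count of 10 left 40 windows of the table and 0 of the span, so it gave no value there, and 0 calls in 1 Mb bins. Without 1 replicate no test has residual degrees of freedom.

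The 129 share was 53.9 to 54.0% without 1 replicate, 53.7% with the edges moved in by 1 Mb, 54.7% from Daxx to the last H2-M gene, 53.6% as a mean log2 ratio and 52.4% in rows with 4 or more counts. In those rows the excess over the rest of the chromosome was 0.521 points, with opposite signs in the replicates. Windows higher on 129 numbered 31 without 1 replicate, whichever was left out, 6 from Daxx to the last H2-M gene, and 50 with columns scaled to 1 total, which turns equal counts into a 129 excess. Windows higher on CAS numbered 13 to 18 without 1 replicate and 2 from Daxx to the last H2-M gene. By 3 or more counts, 1 to 2 windows were higher on 129 without 1 replicate. The level below the rest of the chromosome ranged from -1.18 to -0.391 without 1 replicate. It was -0.581 with the edges moved in by 1 Mb and -0.389 ± 0.511 (SD, n = 2) from Daxx to the last H2-M gene. Depth limits every window, since few hold more than 2 counts on an allele.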
